A study of Mus musculus with 12 samples.

Results

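A set of 7 genes of GABA synthesis, transport, breakdown and chloride balance were followed in cerebellar messenger RNA: Gad1, Gad2, Slc32a1, Slc6a11, Abat, Slc12a2 and Slc12a5. They were chosen by name, and all 7 were found among the 18394 genes of the count table and passed the filter on low counts that left 15467 tested genes. The samples were 6 wild-type (WT) cerebella and 6 cerebella labelled as deltaalpha6-Cre Crfr1 knock-out (cKO), each from freshly dissected tissue. Crfr1, listed as Crhr1, is a receptor of the stress peptide corticotropin-releasing factor. The name of the Cre driver refers to Gabra6, a GABA-A receptor subunit gene typical of cerebellar granule cells. The labels give no age, sex, strain or litter and name no group with Cre alone, so loss of the receptor and presence of the driver cannot be told apart. Every library averages all cells of the tissue, so fewer cells of a type and less RNA per cell cannot be told apart either.

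GABA is the main inhibitory transmitter of the cerebellum, where Purkinje cells, molecular layer interneurons and Golgi cells release it. It is made from glutamate by 2 glutamate decarboxylases, packed into vesicles, taken up again by membrane transporters of neurons and glia, and broken down by a transaminase. Whether GABA-A receptors hyperpolarise a cell depends on its internal chloride, which one cotransporter imports and another exports.

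Between 23.8 and 62.1 M reads were counted in a library (M, 1e6 reads), and most cKO libraries were deeper than most WT libraries. The totals were 23.8, 28.6, 30.2, 31.8, 41.1 and 62.1 M in WT and 32.3, 43.1, 49.2, 55.1, 56.5 and 58.7 M in cKO. Each member had between 1578 and 46510 counts in a library. Levels are given in CPM, counts per 1e6 counts of a library with TMM-normalised size. Gabra6, the namesake of the driver, measured 710 to 871 CPM in WT and 583 to 669 CPM in cKO libraries, with no overlap. Crhr1 measured 91.6 to 102 CPM in WT and 88.7 to 105 CPM in cKO libraries. These counts cover the whole gene in the whole tissue, and the labels do not say which part was deleted, so they do not check the knockout. Defining markers of cerebellar neurons were present in all libraries: summed over 14 Purkinje cell markers, led by Itpr1 and Car8, the level was 10903 to 11226 CPM in WT and 10291 to 11387 CPM in cKO, and over 16 granule cell markers, led by Cbln3 and Fat2, it was 9269 to 9625 CPM in WT and 8911 to 9636 CPM in cKO. Across the transcriptome 409 of the 15467 genes, or 2.64%, differed between the genotypes at an adjusted p under 0.05 (edgeR quasi-likelihood test, Benjamini-Hochberg adjustment over all tested genes).

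Promoter sequence is shown for 4 members: for Gad1 and Gad2 because they encode enzymes of the same reaction, and for Slc12a5 and Slc6a11 because they were the steadiest and the most variable of the 7 between libraries. The RefSeq table held windows for 5 of the 7 members, Slc32a1 among them. For Slc12a5 the upstream of its 2 listed starts is shown, and the Gad1 stretch lies inside the GENCODE gene but outside its exons. The sequences are from RefSeq (GRCm38.p6, the assembly of mm10), on the plus strand, 5′ to 3′. Each starts 250 bases before the RefSeq start and ends before that start or before the first base of a GENCODE M21 exon, whichever comes first. Capitals mark E-boxes, CANNTG, which basic helix-loop-helix factors bind. TGACG, the core of the cAMP response element, was searched as well, on both strands, since Crfr1 signals through cAMP.
Gad1, chr2:70561879-70562041: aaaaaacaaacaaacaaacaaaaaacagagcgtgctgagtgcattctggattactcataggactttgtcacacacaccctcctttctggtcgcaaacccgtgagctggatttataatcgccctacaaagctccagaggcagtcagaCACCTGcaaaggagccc
Gad2, chr2:22622077-22622204: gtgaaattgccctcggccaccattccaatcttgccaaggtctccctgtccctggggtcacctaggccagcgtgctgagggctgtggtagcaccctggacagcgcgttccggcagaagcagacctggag
Slc12a5, chr2:164960596-164960801: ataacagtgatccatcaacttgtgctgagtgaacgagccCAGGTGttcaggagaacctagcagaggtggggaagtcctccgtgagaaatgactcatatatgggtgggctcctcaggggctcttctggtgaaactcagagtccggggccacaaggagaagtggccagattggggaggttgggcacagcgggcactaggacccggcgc
Slc6a11, chr6:114130991-114131240: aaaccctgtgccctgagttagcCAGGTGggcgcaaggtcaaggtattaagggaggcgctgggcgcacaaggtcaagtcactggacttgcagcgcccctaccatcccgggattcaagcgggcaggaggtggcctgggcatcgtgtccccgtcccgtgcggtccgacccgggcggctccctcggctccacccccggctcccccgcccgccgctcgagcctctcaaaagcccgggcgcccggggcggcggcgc

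Gad1, Slc12a5 and Slc6a11 each had 1 E-box in the stretch shown and Gad2 had 0. In its full 250 bases, the exonic part included, Gad2 had 1 E-box, as had Gad1, Slc12a5 at the start shown, and Slc6a11, and the other start of Slc12a5 had 2. Stretches of the same span held an E-box in 52.1% (span of Gad1), 43.9% (Gad2), 60.0% (Slc12a5) and 66.2% (Slc6a11) of the 32851 promoter windows. TGACG was found in 0 of the 4 stretches, and in 9.28%, 7.001%, 13.4% and 17.8% of all windows over those spans. In the full 250 bases before the start, 17.8% of all windows held TGACG, and among these 4 the Gad2 window had 1 match, in a part that is exonic in GENCODE. GC content of the stretches was 46.6% for Gad1, 62.5% for Gad2, 57.3% for Slc12a5 and 71.2% for Slc6a11. Such matches describe letters in a window only.

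Per kilobase of annotated exon (RPKM, CPM divided by the exon length in kilobases from GENCODE M21), the members spanned a wide range and kept nearly the same order in every library. Slc12a5 was the most abundant at 99.2 ± 0.91 RPKM in WT and 102 ± 1.96 in cKO (SD, n = 6 per genotype), and Gad1 followed at 91.9 ± 1.54 and 90.7 ± 2.12 RPKM. Abat had 62.2 ± 1.58 and 61.7 ± 1.44 RPKM, Slc32a1 54.0 ± 1.80 and 52.5 ± 1.70, and Gad2 33.8 ± 0.83 and 32.0 ± 1.51. Slc12a2, at 17.5 ± 0.67 and 16.7 ± 1.103 RPKM, and Slc6a11, at 15.1 ± 1.47 and 17.2 ± 3.11 RPKM, were the least abundant. Each of the first 5 genes in this order lay above the next in all 12 libraries, whereas Slc12a2 lay above Slc6a11 in 8 of 12. Slc12a2 was the higher of these neighbours in every WT library, and Slc6a11 was the higher in cKO replicates 1, 2, 3 and 5. Among the 14911 tested genes with an exon length, Slc12a5 ranked 261 and Slc6a11 ranked 3336 by this level.

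**Figure D1:**
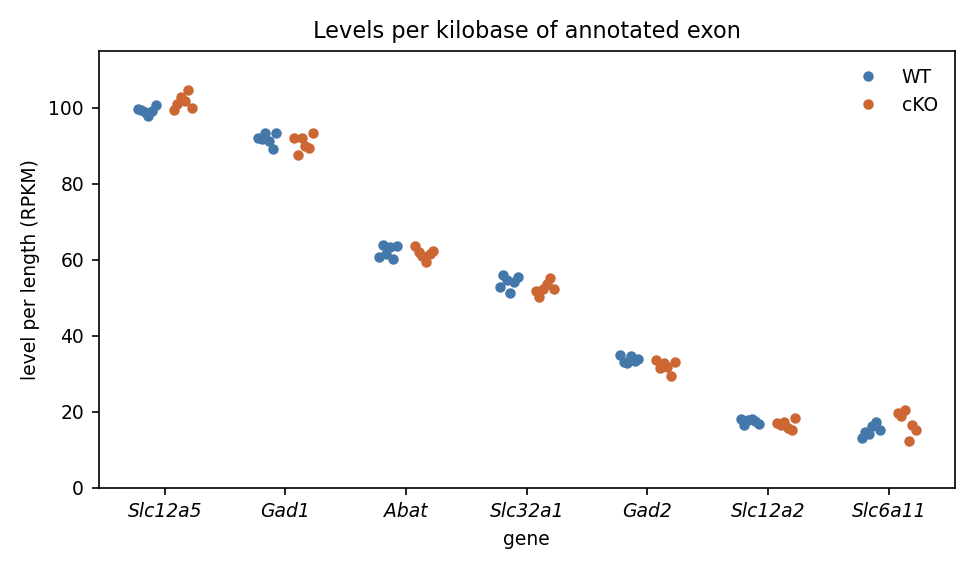
Level per kilobase of annotated exon (RPKM, y axis) of the 7 genes in each library, ordered by mean (x axis); blue points are the 6 WT and orange points the 6 cKO libraries. Slc12a5 (97.9 to 105 RPKM) and Gad1 (87.5 to 93.4 RPKM) were highest, and the ranges of Slc12a2 and Slc6a11 overlapped.

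None of the 7 genes passed the test between genotypes: 0 were called with edgeR, DESeq2 or limma-voom, where edgeR called 2.64% of all tested genes (1.27% higher and 1.38% lower in cKO), DESeq2 3.99% of genes with an adjusted p and limma-voom 2.64%. At an unadjusted p under 0.05 edgeR had 1 of the 7 (Gad2), limma-voom 1 (Gad2) and DESeq2 2 (Gad2 and Slc12a5), beside 14.2% of all tested genes with edgeR, 14.0% with limma-voom and 11.6% with DESeq2. Of the log2 fold changes of cKO over WT, 5 were negative and 2 positive, with a median of −0.018, where all tested genes had a median of −0.00027. In 0 of the 7 did the libraries of one genotype all lie above those of the other, beside 2.09% of all tested genes. For 6 of the 7 genes, Slc6a11 excepted, the 95% interval of the difference lay between −9.39% and 5.36%.

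**Figure D2:**
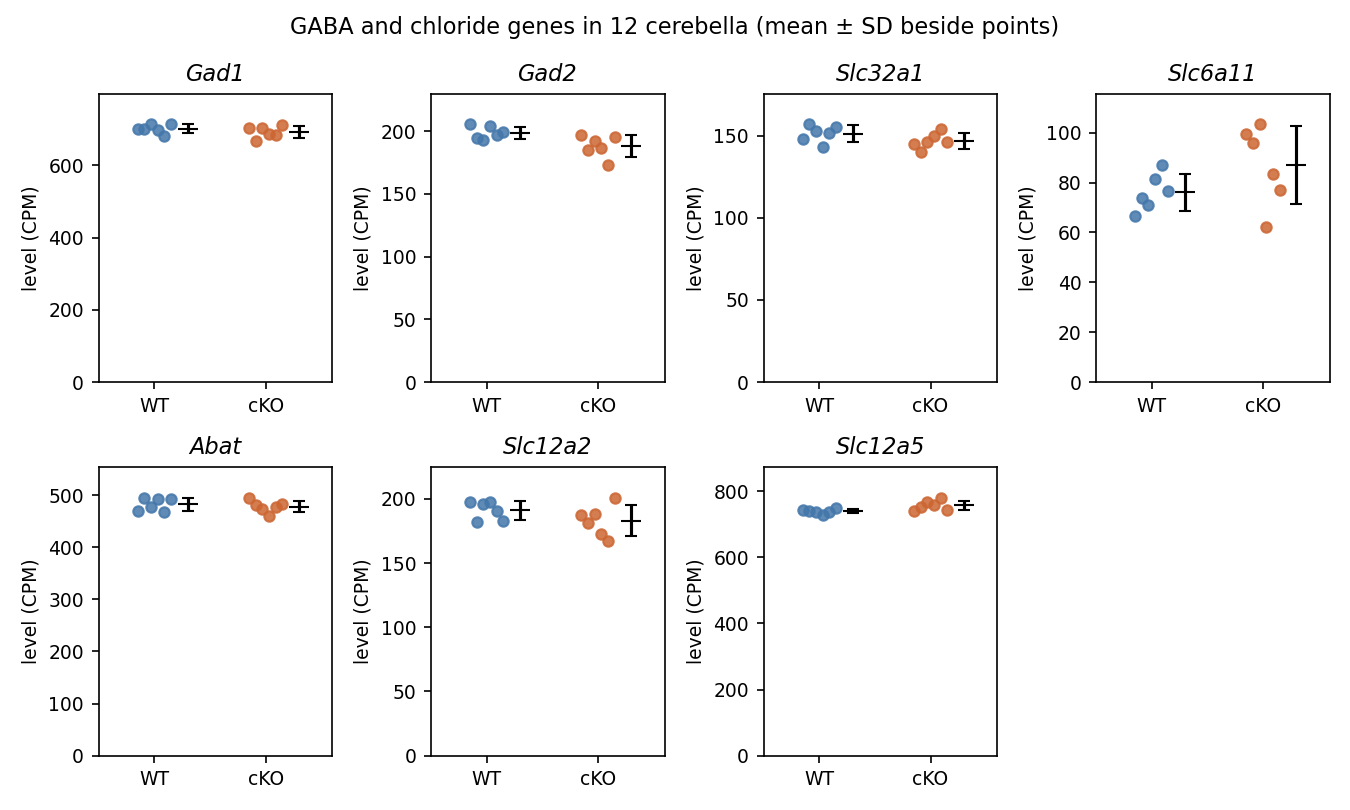
Level in CPM (y axis, from 0) of each of the 7 genes in the 6 WT (blue) and 6 cKO (orange) libraries, with the mean ± SD in black beside the points. The genotypes overlap for every gene, and Slc6a11 shows the widest scatter, from 62.1 to 103 CPM.

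Of the 2 genes of GABA synthesis, Gad1 had close to the same level in both genotypes and Gad2 was slightly lower in cKO without passing the test. Gad1 (chromosome 2, 70553072 to 70602014, GENCODE M21 on mm10) encodes GAD67, the decarboxylase that supplies most GABA for general use in the cell. Its lowest, median and highest levels were 682, 702 and 714 CPM in WT and 668, 695 and 713 CPM in cKO. The groups overlapped almost fully, with only cKO replicate 2 below all WT libraries. The log2 fold change was −0.018 (SE 0.021, edgeR adjusted p = 0.774; two-sided exact permutation test of log2 CPM, p = 0.344), a change of −1.25% with a 95% interval of −4.26% to 1.86%. The antisense gene Gad1os overlaps it on the opposite strand, and how the authors' counting treated strand is not given in the sources used here.

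Gad2 (chromosome 2, 22622205 to 22693874) encodes GAD65, the decarboxylase concentrated at synaptic terminals. From lowest through median to highest, it measured 193, 198 and 205 CPM in WT and 173, 189 and 197 CPM in cKO. Among the 6 cKO libraries, 4 lay below all WT libraries, and the other cKO libraries fell within the WT range. On the log2 scale the change was −0.079 (SE 0.030, unadjusted p = 0.0150, edgeR adjusted p = 0.207), a change of −5.36% with a 95% interval of −9.34% to −1.19%, and the exact permutation p was 0.0216, where 0.00216 is the smallest the design allows. The authors' deposited table gave Gad2 a log2 fold change of −0.071 with an adjusted p of 0.171. Per length, the level of Gad1 over that of Gad2 was 2.72 ± 0.085 in WT and 2.84 ± 0.10 in cKO (SD, n = 6 per genotype), and 1 cKO library exceeded all WT libraries in this ratio.

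Slc32a1, the vesicular transporter that loads GABA and glycine into synaptic vesicles, did not differ beyond the spread between libraries. The gene lies on chromosome 2, 158610767 to 158615748. Its lowest, median and highest levels were 143, 152 and 157 CPM in WT and 140, 146 and 154 CPM in cKO. Among the cKO libraries, 5 lay below the WT median, and 1 lay below all WT libraries. The log2 fold change was −0.042 (SE 0.027, edgeR adjusted p = 0.524, exact permutation p = 0.154), with a 95% interval of −6.63% to 1.05%. The antisense gene Gm14205 overlaps it on the opposite strand. Per length, Slc32a1 stood at 0.588 ± 0.019 of Gad1 in WT and 0.579 ± 0.022 in cKO (SD, n = 6 per genotype).

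Slc6a11, which encodes the GABA transporter GAT-3 found mainly on astrocytes, varied more between libraries than any other member, and its genotype difference did not pass the test. The gene lies on chromosome 6, 114131241 to 114249952. From lowest through median to highest, it measured 66.4, 75.1 and 87.0 CPM in WT and 62.1, 89.8 and 103 CPM in cKO. In cKO, replicates 1, 2 and 3 lay above all WT libraries, and cKO replicate 4 lay below all WT libraries. On the log2 scale the change was 0.19 (SE 0.095, edgeR adjusted p = 0.389, exact permutation p = 0.188), with a 95% interval of −0.88% to 30.9%, the widest of the 7. Its standard deviation of log2 CPM within genotypes was 0.22, above 99.8% of the 5029 tested genes with a mean of 50 to 1000 CPM, whose median was 0.050. In fits leaving out 1 library, the log2 fold change was highest without cKO replicate 4, at 0.27 (SE 0.072, edgeR adjusted p = 0.0601). It was lowest without cKO replicate 3, at 0.13 (SE 0.093, edgeR adjusted p = 0.635).

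The level of Slc6a11 followed a score of genes listed for brain regions outside the cerebellum. This score was formed per library as the mean z-value of log2 CPM over the 17 tested genes of lists typical of forebrain, midbrain or brainstem. Some of these genes, such as Barhl1 and Ppp1r1b, are also expressed in cerebellum. Others had few counts, such as Drd1 at 0.24 to 0.37 CPM in WT and 0.22 to 0.41 CPM in cKO. The score ran from −0.62 to 0.29 in WT and from −0.66 to 0.56 in cKO, with means of −0.16 ± 0.31 and 0.16 ± 0.43 (SD, n = 6 each; exact permutation p = 0.177). After removal of the genotype means, Slc6a11 correlated with the score over the 12 libraries at Pearson's r = 0.93 (permutation p = 9.00e-05, adjusted p = 0.00063 over the 7 members) and Spearman's rho = 0.93 (permutation p = 1e-05, the smallest that 100000 permutations can give, adjusted p = 7.00e-05). The correlation was 0.91 within WT and 0.95 within cKO, and 0.81 without WT replicate 1 and cKO replicate 4, the libraries farthest from the median score. With the score as a covariate the log2 fold change of Slc6a11 was 0.0098 (SE 0.046, edgeR adjusted p = 0.965). The other 6 members had correlations with the score between −0.18 and 0.42, with adjusted p values of at least 0.662. The score is a trend of other genes in these same libraries, and the adjustment covers the members only. The p-values for Slc6a11 thus show nothing particular to it among all genes. How many other genes followed the score as closely was not counted.

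**Figure D3:**
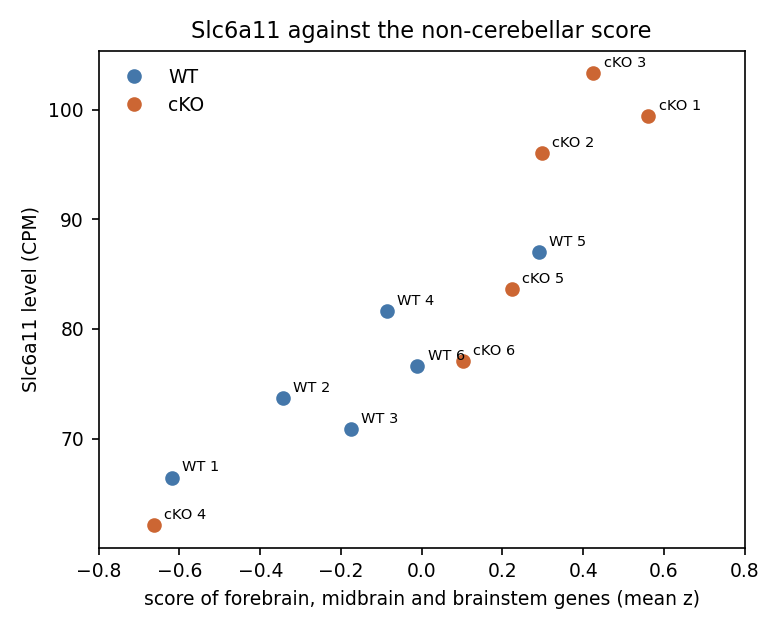
Slc6a11 level in CPM (y axis) against the score of forebrain, midbrain and brainstem genes (x axis, mean z-value) for each library, labelled by genotype and replicate; blue is WT and orange is cKO. Both genotypes lie along the same rising trend, from cKO replicate 4 (62.1 CPM, score −0.66) to cKO replicates 1 and 3 (99.4 and 103 CPM).

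Of the 15 tested forebrain and midbrain genes of that score, 9 had positive and 6 negative log2 fold changes, with 1 called higher in cKO (edgeR) and a median of 0.22. Among all tested genes 1.27% were called higher, and the median was −0.00027. Tcf7l2, a transcription factor abundant in thalamus and midbrain and singled out after its values were seen, measured 6.14 to 18.0 CPM in WT and 8.69 to 22.98 CPM in cKO (log2 fold change 0.53, edgeR adjusted p = 0.259). Its highest level was in cKO replicate 3, as for Slc6a11, but its lowest was in WT replicate 2, where Slc6a11 was lowest in cKO replicate 4. Six3, a forebrain factor named on the same basis, measured 0.42 to 3.21 CPM in WT and 0.998 to 3.03 CPM in cKO and was highest in WT replicate 5. The 6 with negative estimates were Rgs9, Drd1, Adora2a, Ppp1r1b, Barhl1 and Th. Their log2 fold changes were −0.28, −0.26, −0.10, −0.062, −0.054 and −0.035 (edgeR adjusted p = 0.294, 0.654, 0.720, 0.363, 0.670 and 0.905). The summed level of the 15 tested forebrain and midbrain genes was 186 to 199 CPM in WT and 180 to 206 CPM in cKO, most of it from Ppp1r1b, and the 2 tested brainstem genes, Tph2 and Calca, summed to 0.75 to 1.096 and 0.87 to 1.43 CPM. The 15 tested astrocyte and Bergmann glia markers, led by Sparcl1 and Aldoc, summed to 9233 to 9506 CPM in WT and 9304 to 9655 CPM in cKO. Of these markers 0 were called with edgeR, beside 2.64% of all tested genes. Whether tissue from outside the cerebellum contributed to Slc6a11 was not tested.

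Abat, the GABA transaminase that begins the breakdown of GABA, had the flattest comparison of the 7. The gene lies on chromosome 16, 8513429 to 8621568. Its lowest, median and highest levels were 467, 484 and 495 CPM in WT and 461, 479 and 494 CPM in cKO. The ranges nearly coincided, and 1 cKO library lay below all WT libraries. The log2 fold change was −0.013 (SE 0.023, edgeR adjusted p = 0.865, exact permutation p = 0.535), with a 95% interval of −4.17% to 2.48%.

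The chloride cotransporters had estimates of opposite sign, and neither passed the test. Slc12a2 (chromosome 18, 57878678 to 57946821) encodes NKCC1, which imports chloride and is also made by glia and the choroid plexus. From lowest through median to highest, it measured 182, 193 and 198 CPM in WT and 167, 184 and 201 CPM in cKO. In cKO, 3 libraries lay below and 1 above all WT libraries. On the log2 scale the change was −0.062 (SE 0.038, edgeR adjusted p = 0.492, exact permutation p = 0.180), with a 95% interval of −9.39% to 1.21%. Choroid plexus markers, led by Ttr and Clic6, summed to 206 to 652 CPM in WT and 145 to 1044 CPM in cKO, and 15 oligodendrocyte lineage markers, led by Mbp, to 4010 to 4364 and 3865 to 4324 CPM. Their part in the level of Slc12a2 was not tested.

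Slc12a5 (chromosome 2, 164960802 to 164999731) encodes KCC2, the chloride exporter of mature neurons. Its lowest, median and highest levels were 729, 739 and 749 CPM in WT and 740, 755 and 779 CPM in cKO. In cKO, 4 libraries lay above all WT libraries, and the other cKO libraries fell within the WT range. The log2 fold change was 0.034 (SE 0.019, unadjusted p = 0.0939, edgeR adjusted p = 0.450, exact permutation p = 0.0195), a change of 2.41% with a 95% interval of −0.45% to 5.36%. The authors' deposited table gave Slc12a5 an unadjusted p of 0.0355 and an adjusted p of 0.315. Its spread was small: the standard deviation of log2 CPM within genotypes was 0.022, below that of all but 1.19% of the 5029 genes of 50 to 1000 CPM. Per length, the level of Slc12a5 over that of Slc12a2 was 5.68 ± 0.26 in WT (5.41 to 6.02) and 6.10 ± 0.49 in cKO (5.44 to 6.84; SD, n = 6 each), with 3 cKO libraries above all WT libraries.

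Between libraries of the same genotype, 4 of the members had correlations in opposed pairs, none past adjustment: Gad2 with Slc12a2, and Slc32a1 with Slc12a5. Over the 12 libraries, with genotype means removed, Gad2 and Slc12a2 correlated at r = 0.76 (permutation p = 0.0130) and rho = 0.75 (permutation p = 0.0126), and Slc32a1 and Slc12a5 at r = 0.63 (permutation p = 0.0308) and rho = 0.57 (permutation p = 0.0628). Across these pairs the sign was negative: r was −0.69 for Slc12a2 and Slc12a5 (rho = −0.50), −0.67 for Gad2 and Slc12a5 (rho = −0.43), −0.63 for Slc32a1 and Slc12a2 (rho = −0.73) and −0.61 for Gad2 and Slc32a1 (rho = −0.60). These were the 6 pairs of all 21 with an unadjusted permutation p under 0.05 for r, and 0 of 21 passed adjustment (smallest adjusted permutation p = 0.170 for r and 0.133 for rho). Without the 2 libraries farthest from the median of the first gene, r was 0.67 for Gad2 and Slc12a2, 0.38 for Slc32a1 and Slc12a5, and −0.39, −0.15, −0.49 and −0.42 for the 4 negative pairs in the order given. The relation of Gad2 to Slc12a5 thus rests on cKO replicates 1 and 5, and its r was −0.085 within WT and −0.81 within cKO. For Gad2 and Slc12a2 r was 0.47 within WT and 0.85 within cKO. The remaining pairs had r of 0.67 and 0.68 (Slc32a1 and Slc12a5), −0.66 and −0.70 (Slc12a2 and Slc12a5), −0.81 and −0.56 (Slc32a1 and Slc12a2) and −0.77 and −0.58 (Gad2 and Slc32a1), WT first. Gad1 and Gad2 correlated at r = 0.47 (permutation p = 0.194, adjusted p = 0.489).

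The same 4 genes followed a trend of the whole library with GC content. For each library the slope of log2 level, relative to the mean of all libraries, on the GC content of the longest GENCODE transcript was fitted over 11280 genes without the members. It ran from −0.046 to 0.031 log2 units per 10 percentage points of GC in WT and from −0.040 to 0.097 in cKO, the highest in cKO replicate 5, and did not differ between genotypes (exact permutation p = 0.643). Transcripts of Gad2 and Slc12a2 have a GC content of 44.1% and 44.2%, those of Slc12a5 and Slc32a1 58.3% and 61.9%, and the median of the tested genes was 49.8%. Over the 12 libraries, with genotype means removed, the slope correlated with Gad2 at r = −0.84 (rho = −0.73), with Slc12a2 at −0.83 (rho = −0.90), with Slc32a1 at 0.81 (rho = 0.84) and with Slc12a5 at 0.89 (rho = 0.78). For r the permutation p values were 0.00533, 0.00293, 0.00179 and 0.00076 (adjusted over 7 members, 0.00933, 0.00684, 0.00626 and 0.00532), and for rho 0.0147, 0.00062, 0.00166 and 0.00778 (adjusted 0.0257, 0.00434, 0.00581 and 0.0182). Without cKO replicates 5 and 6, the libraries farthest from the median slope, r was −0.58, −0.69, 0.86 and 0.75. Gad1, Slc6a11 and Abat had r between −0.20 and −0.12, with adjusted permutation p values for r of at least 0.729. The slope is a trend over many genes of these same libraries, so these p-values show nothing particular to the members. How many other genes of like GC content followed it as closely was not counted.

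With this slope as a covariate, a fit added after the data were seen, the standard errors of those 4 genes shrank and 0 of the 7 members were called. The log2 fold change of Gad2 was −0.066 (SE 0.020, edgeR adjusted p = 0.0858), that of Slc12a2 −0.043 (SE 0.025, adjusted p = 0.402), that of Slc32a1 −0.054 (SE 0.020, adjusted p = 0.161) and that of Slc12a5 0.028 (SE 0.014, adjusted p = 0.335).

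**Figure D4:**
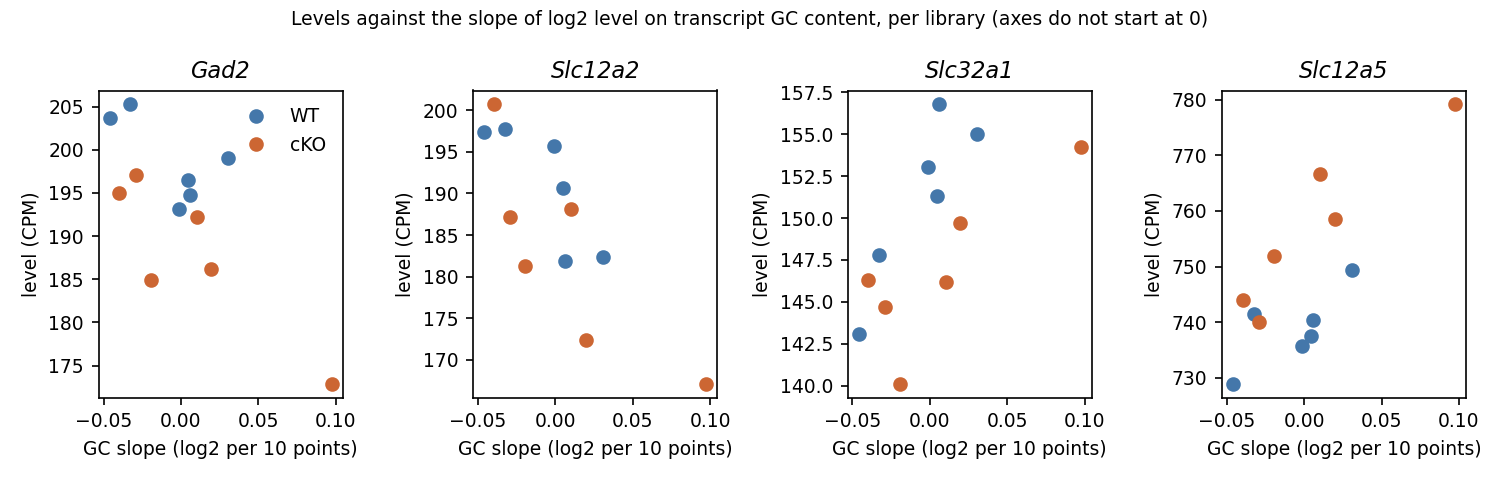
Levels in CPM (y axes, not from 0) of Gad2, Slc12a2, Slc32a1 and Slc12a5 against the slope of log2 level on transcript GC content in each library (x axes, log2 units per 10 percentage points); blue is WT and orange is cKO. Gad2 and Slc12a2 fall and Slc32a1 and Slc12a5 rise along the slope, and cKO replicate 5, with a slope of 0.097, has the lowest Gad2 (173 CPM) and the highest Slc12a5 (779 CPM).

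Each member was also set beside all genes with a mean of at least 5 CPM to find those whose deviations from the genotype mean over the 12 libraries were most like it, given here as a description since all share the same libraries. The 3 closest to Slc6a11 were Tshz2, Entpd3 and Zcchc12 (r = 0.97, 0.97 and 0.96). The 3 closest to Gad2 were Pikfyve, Nr1d2 and Appl1 (0.97, 0.96 and 0.94), and those closest to Slc12a2 were Cul4b, Lrch2 and Avl9 (0.97, 0.97 and 0.94). Slc12a5 was followed most closely by Mapk8ip3, Skiv2l and Cs (0.96, 0.96 and 0.95) and Slc32a1 by Zfyve19, Dcakd and Lrrc56 (0.95, 0.93 and 0.93). Gad1, with Stambp at 0.89, and Abat, with Dclre1c at 0.92, had looser matches. These coefficients are the highest of 11665 genes.

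Around the 7 members, 77 genes in 3 lists were examined, for GABA supply and uptake, for chloride transport and its regulators, and for vesicle loading. Of the 26 tested genes of GABA supply and uptake, 0 were called with edgeR, DESeq2 or limma-voom, with 6, 5 (of 27 genes tested with DESeq2) and 6 at an unadjusted p under 0.05. Over all tested genes edgeR and limma-voom called 2.64%, and DESeq2 called 3.99% of genes with an adjusted p. With edgeR the 6 genes at an unadjusted p under 0.05 are 23.1% of the list, beside 14.2% of all tested genes. The median log2 fold change of the list was −0.0084. Per length, the GABA transporters Slc6a13 (GAT-2) and Slc6a12 had 6.92 ± 0.63 and 2.63 ± 0.17 RPKM in WT (SD, n = 6), below Slc6a11. The smallest p values in the list belonged to the glutamine transporter Slc38a5 and the glutamate transporters Slc1a1 and Slc1a2. Their log2 fold changes were 0.36, −0.078 and 0.080 (SE 0.145, 0.032 and 0.033, edgeR adjusted p = 0.246, 0.254 and 0.273). The level of Slc38a5 was low, at 2.13 to 4.45 CPM in WT and 3.53 to 5.01 CPM in cKO. Aldh5a1, which completes GABA breakdown after Abat, measured 147 ± 3.12 CPM in WT and 147 ± 3.03 CPM in cKO (SD, n = 6 per genotype).

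Of the 31 tested genes of chloride transport and its regulators, 1 was called, higher in cKO, beside 1.27% of all tested genes called higher. At an unadjusted p under 0.05 there were 6 with edgeR, or 19.4%, beside 14.2% of all tested genes, and the median log2 fold change was −0.0023. DESeq2 called 3 of the 33 list genes it tested, beside 3.99% of all genes with an adjusted p. Atp1b1, the β1 subunit of the sodium-potassium pump, measured 1551 to 1632 CPM in WT and 1436 to 1574 CPM in cKO (log2 fold change −0.077, SE 0.023, adjusted p = 0.0828), and the carbonic anhydrase gene Car7 measured 47.6 to 53.0 and 51.3 to 62.2 CPM (log2 fold change 0.15, SE 0.042, adjusted p = 0.0636). Atp1b1 and Car7 were called with DESeq2 and with the GC slope as a covariate, and Car7 also with the non-cerebellar score as a covariate (adjusted p = 0.0402) and without cKO replicate 6 (adjusted p = 0.0208).

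Among a relative of the chloride cotransporters, Slc12a4, and the 7 tested kinase genes of the list, 0 were called with edgeR, beside 2.64% of all tested genes. Slc12a4, which encodes KCC1, measured 43.4 ± 1.78 CPM in WT and 43.0 ± 2.38 CPM in cKO (SD, n = 6 per genotype). The kinase genes Wnk1, Stk39 and Oxsr1, whose products activate NKCC1 and inhibit the KCC transporters, had log2 fold changes of −0.022, −0.0084 and 0.011 (edgeR adjusted p = 0.791, 0.957 and 0.897). Wnk3 and Wnk4 had −0.0086 and −0.061 (adjusted p = 0.967 and 0.791). Larger estimates belonged to Wnk2, 0.074 (SE 0.031, unadjusted p = 0.0302, edgeR adjusted p = 0.285), and to the protein kinase C gene Prkcd, −0.13 (SE 0.042, unadjusted p = 0.00819, edgeR adjusted p = 0.150).

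Of the 12 tested genes of vesicle loading, 0 were called with edgeR or limma-voom (3 and 4 at an unadjusted p under 0.05) and 1 with DESeq2, and their median log2 fold change was −0.035. The 3 genes at an unadjusted p under 0.05 with edgeR are 25.0% of the list, beside 14.2% of all tested genes. EdgeR and limma-voom called 2.64% of all tested genes, and DESeq2 called 3.99% of all genes with an adjusted p. The gene called with DESeq2 was Slc17a7, the vesicular glutamate transporter of granule cells, at 523 to 561 CPM in WT and 456 to 541 CPM in cKO (log2 fold change −0.13, SE 0.035, edgeR adjusted p = 0.0585). It was also called in edgeR fits with surrogate variables (adjusted p = 0.0394) and with the GC slope (adjusted p = 0.00045), and without cKO replicate 4 (adjusted p = 0.0378) or cKO replicate 5 (adjusted p = 0.00582). Slc17a7 is also 1 of the 16 granule cell markers, of which 2 were called higher and 6 lower in cKO, Gabra6 among the latter, beside 1.27% and 1.38% of all tested genes. Slc6a5, the glycine transporter of Golgi cells that share Slc32a1 for loading, measured 15.1 to 18.0 CPM in WT and 13.5 to 15.5 CPM in cKO, with 5 of 6 cKO libraries below all WT libraries (log2 fold change −0.15, SE 0.046, edgeR adjusted p = 0.105). The synaptic vesicle gene Sv2c had a log2 fold change of −0.11 (SE 0.037, adjusted p = 0.159). Beside these, 16 markers of inhibitory interneurons, led by Pvalb and Kit, summed to 1317 to 1385 CPM in WT and 1216 to 1334 CPM in cKO, with 13 negative and 3 positive log2 fold changes, a median of −0.085 and 1 called gene, Lgi2, lower in cKO (log2 fold change −0.21, edgeR adjusted p = 0.00666), beside 1.38% of all tested genes called lower. Their part in the levels of Gad2, Slc32a1 and Slc6a5 was not tested.

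**Figure D5:**
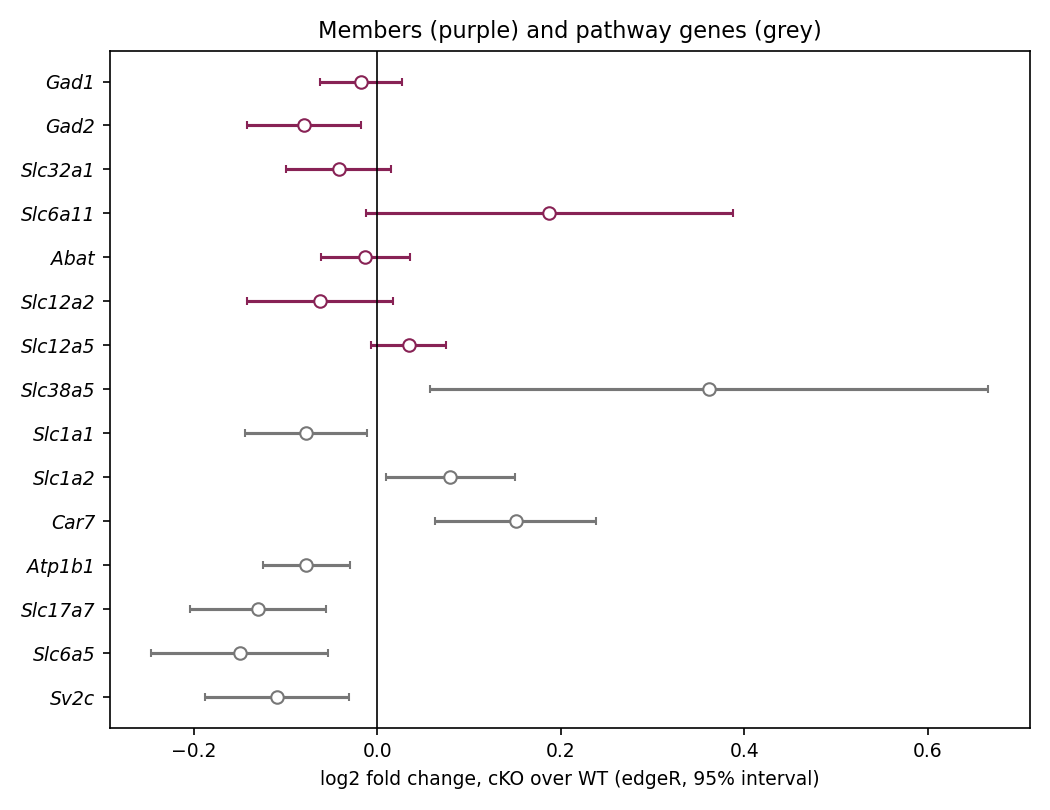
Log2 fold change of cKO over WT (x axis) with its 95% interval from edgeR for the 7 members (purple) and the named genes of the 3 pathway lists (grey) that the text describes; none of the genes shown passed an adjusted p of 0.05. The interval of Slc6a11 is the widest among the members.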

How the data were processed

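Messenger RNA of 12 cerebella was sequenced from stranded libraries multiplexed over the same lanes, per the labels' protocols. The authors deposited unnormalised counts for each gene symbol, and a DESeq2 comparison with a mean signal, a log2 fold change, a statistic or score, and p-values, per the file headers. STAR, DESeq2 and mm10 are named in the submitters' processing notes. Which tool counted the reads, with which annotation and strand mode, is not stated in those sources. The sign of the authors' table was read from 400 genes called in both analyses, all of the same sign. Of the sample columns 0 were unmatched.

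The main comparison used edgeR 4.0.16 in R 4.3.3: filterByExpr, TMM, glmQLFit and glmQLFTest, Benjamini-Hochberg adjustment over 15467 genes at 0.05, no covariate. SEs and 95% intervals come from the test statistic. The labels do not say more on how animals relate, so p-values measure the spread between these libraries. Alternatives used DESeq2 1.42.0, limma 3.58.1 and sva 3.50.0 (3 surrogate variables), other scalings, no filter, a fold of 1.1, covariates, and each library left out. Single values were tested with two-sided exact permutation tests over libraries. Relations were permuted within genotype. Lengths, GC content and positions are from GENCODE M21, matched by symbol for 14911 tested genes (96.4%). The fit was tested on simulated data. Named genes were all members, up to 8 called genes or otherwise the 3 with the smallest p of each list, Gabra6, Crhr1, the leading markers, and the 3 genes most like each member; others named complete a count or a family. Members and lists were chosen with earlier results of these data known. Some genes of the lists are not reported here, though they stay in the counts.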

Additional observations from a re-analysis of the deposited data

How the results depend on the processing

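The log2 fold changes of the 7 members kept their sign in all 21 alternative fits and none was called in any: over fits leaving out 1 library they ran from −0.026 to −0.0080 for Gad1, −0.093 to −0.056 for Gad2, −0.056 to −0.029 for Slc32a1, 0.13 to 0.27 for Slc6a11, −0.023 to −0.0018 for Abat, −0.091 to −0.038 for Slc12a2 and 0.026 to 0.041 for Slc12a5. Slc6a11 was 0.0098 with the non-cerebellar score and Slc12a2 −0.030 with surrogate variables; the cause was not tested. Against a fold of 1.1, where a larger change is required, 75 genes were called in place of 409. Leaving out 1 library gave 272 (without WT replicate 3) to 459 calls, DESeq2 577 and the GC slope 584. In the 3 pathway lists together the single call became 4 with DESeq2, 4 with the GC slope, 2 with surrogate variables, 2 with the non-cerebellar score, 0 against a fold of 1.1, and 1 to 2 without 1 library. No paired analysis was possible because replicate numbers follow the order of deposit and pair no samples.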
